A study of Homo sapiens with 6 samples.

Results

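Translation initiation factor genes were followed through 3 states of Hey and SKOV3, both established lines of human ovarian cancer: parental cells, polyploid giant cancer cells (PGCCs) and their daughter cells. The 49 genes were chosen by their symbol and by a mean over the 6 libraries of at least 1 TPM (transcripts per 1000000). The symbol had to be EIF followed by a digit, with no hyphen and no P or P plus digits at its end. The rule leaves out names of pseudogenes and antisense RNAs and keeps the copy EIF3CL. It also leaves out EIF4EBP1, EIF4EBP2 and EIF4EBP3, which are in the list of regulators. Among 59008 deposited gene symbols, 53 matched the name, and EIF1AY, EIF4E1B, EIF5AL1 and EIF2S3B fell under the limit. Because mean TPM selected the genes, their presence and mean level are a description. The gene just inside the limit was EIF3CL with a mean of 4.76 TPM, and the matching symbol just outside was EIF2S3B with 0.228 TPM.

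Each condition had 1 library, so differences between conditions have no replicate check. Parental cells were untreated. PGCCs, enlarged cells with multiplied genomes that outlive paclitaxel, were collected after 500 nM paclitaxel for 16 hours and 3 days of recovery, and daughter cells after the same treatment and 30 days of recovery, each daughter library being labelled as clone 1 of its line. The SKOV3 PGCC library carries day 7 in its title and 3 days in its treatment label. Paclitaxel stabilises microtubules and blocks mitosis.

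Initiation factors bring the small ribosomal subunit, the initiator tRNA and the capped mRNA together and place the ribosome at the start codon. The eIF4F factors bind the cap and unwind the leader, eIF3 is the large scaffold on the small subunit, eIF2 carries the initiator tRNA as a complex with GTP, eIF2B recharges eIF2 with GTP, and eIF5 triggers GTP hydrolysis when the start codon is found. Stress kinases phosphorylate eIF2 and block eIF2B, which lowers general initiation while a few mRNAs such as ATF4 are translated more. RNA levels of the factors, which are measured here, do not report their phosphorylation or the rate of translation.

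All 49 genes were above 0 TPM in every library. The libraries held values above 0 for 19920 to 25370 genes each. Mitochondrial genes took 2.64%, 12.3% and 7.60% of the summed TPM in Hey parental cells, PGCCs and daughter cells and 9.17%, 7.37% and 14.8% in SKOV3. The epithelial keratins KRT8 and KRT18 and the ovarian factor PAX8 were present in every library, but other markers of these kinds were low in some. KRT19 measured 2.47 TPM in Hey parental and 0 TPM in Hey daughter cells, against at least 80.2 TPM in SKOV3. In Hey the epithelial markers EPCAM and CDH1 did not exceed 1.43 TPM. Of the other ovarian markers, MUC16 did not exceed 1.59 TPM and WT1 did not exceed 4.10 TPM in any library. MSLN measured 21.5 and 33.1 TPM in parental cells of Hey and SKOV3, but 0.386 and 1.85 TPM in their daughter cells. Immune and endothelial markers stayed below 0.5 TPM. Of the fibroblast markers COL1A1 reached 16.3 TPM and PDGFRB 5.35 TPM in SKOV3 daughter cells, while COL1A2 and DCN did not exceed 1.33 TPM in any library. The proliferation marker MKI67 stood at 60.5, 9.79 and 108 TPM in Hey parental cells, PGCCs and daughter cells, against 122, 104 and 102 TPM in SKOV3. TOP2A measured 229, 37.2 and 249 TPM in Hey and 604, 177 and 388 TPM in SKOV3. CCNB1 measured 235, 55.9 and 342 TPM in Hey and 623, 388 and 224 TPM in SKOV3.

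Promoter sequences around the RefSeq start sites (GRCh38.p14) were available for 41 of the 49 genes. Shown are 100 bases before to 20 bases after the start, 5′ to 3′ on the gene's strand, with matches to the searched letters in capitals on either strand. EIF5, EIF5A2 and EIF2D are given because they passed 2-fold in Hey PGCCs. The window of EIF5 (chr14:103334137-103334256, + strand) holds a CCAAT box and a GC box, that of EIF5A2 (chr3:170908618-170908737, - strand) holds 3 GC boxes, and that of EIF2D (chr1:206612446-206612565, - strand) holds 1.
EIF5: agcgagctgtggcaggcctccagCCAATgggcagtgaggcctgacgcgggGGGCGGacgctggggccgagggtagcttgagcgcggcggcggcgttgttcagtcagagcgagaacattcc
EIF5A2: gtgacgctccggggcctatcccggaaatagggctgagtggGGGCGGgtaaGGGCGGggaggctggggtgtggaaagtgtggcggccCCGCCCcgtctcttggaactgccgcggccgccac
EIF2D: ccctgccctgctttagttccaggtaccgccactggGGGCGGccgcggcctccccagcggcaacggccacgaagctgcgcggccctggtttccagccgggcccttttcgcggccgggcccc

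The helicase paralogs EIF4A1 (chr17:7572725-7572844, + strand) and EIF4A2 (chr3:186783477-186783596, + strand) are shown because their TPM ratio differed between the libraries of each line. EIF4A2 was the only gene of the 41 with the TATA box letters TATAAA, 30 bases before its start, whereas EIF4A1 carries 3 GC boxes and a CCAAT box.
EIF4A1: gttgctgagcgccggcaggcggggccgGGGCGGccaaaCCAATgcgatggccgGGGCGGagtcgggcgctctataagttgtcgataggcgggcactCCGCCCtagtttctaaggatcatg
EIF4A2: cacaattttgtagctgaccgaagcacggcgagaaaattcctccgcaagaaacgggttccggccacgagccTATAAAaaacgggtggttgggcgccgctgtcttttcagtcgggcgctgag

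The cap-binding factor EIF4E (chr4:98929114-98929233, - strand) and the scaffold EIF4G1 (chr3:184314506-184314625, + strand) are shown for the E-box, the hexamer that MYC and related factors can bind. It starts 72 bases before the start of EIF4E and 67 bases before that of EIF4G1, and each gene has another match farther upstream.
EIF4E: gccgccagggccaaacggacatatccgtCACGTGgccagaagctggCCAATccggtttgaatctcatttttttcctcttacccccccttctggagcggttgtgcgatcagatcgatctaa
EIF4G1: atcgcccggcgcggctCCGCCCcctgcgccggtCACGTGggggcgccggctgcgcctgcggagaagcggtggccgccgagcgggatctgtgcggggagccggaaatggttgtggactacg

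Motif words were searched on both strands of the window from 250 bases before to 50 bases after the start, and no word contains another. The E-box CACGTG was found in 11 of 41 initiation factor promoters (26.8%), in 10.0% of the 10493 promoters of genes that reached a mean of 1 TPM, and in 7.43% of all 27305 promoters. The ETS word CCGGAAGT was found in 8 (19.5%), against 8.87% of promoters of expressed genes and 4.44% of all promoters. The genes with an E-box were EIF1B, EIF2AK2, EIF2B3, EIF3F, EIF3K, EIF4A3, EIF4B, EIF4E, EIF4G1, EIF4H and EIF5A2. Their differences lay on both sides of 0 in each of the 6 comparisons within a line, and no test of the shares was made. The GC box GGGCGG (68.3% against 69.9% of expressed promoters) and CCAAT (41.5% against 37.0%) were about as frequent as in other expressed genes. The word TGATGNAA, an element of the ATF4 and CHOP stress factors, had no match in the 41 windows and was found in 1.70% of expressed promoters. A match is a run of letters, not a measured binding site.

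On the TPM scale, which is corrected for transcript length, the genes spanned more than 2 orders of magnitude. The highest means belonged to EIF3E (1268 TPM), a subunit of the eIF3 scaffold, EIF1 (1154 TPM), which monitors the start codon, EIF4G2 (1122 TPM), a scaffold that works without the cap-binding protein, the helicase EIF4A1 (677 TPM) and its helper EIF4B (584 TPM). The lowest belonged to EIF3CL, EIF2B2 (5.84 TPM), a regulatory subunit of eIF2B, EIF4E3 (9.80 TPM), a divergent cap-binding protein, the endoplasmic reticulum stress kinase EIF2AK3 (10.6 TPM) and EIF4ENIF1 (14.7 TPM), a partner that moves eIF4E into the nucleus and into RNA granules. Subunits of 1 complex differed widely in TPM, since EIF3F had a mean of 18.8 TPM beside 1268 TPM for EIF3E, and the near-identical copy EIF3FP3 was listed with a mean of 16.3 TPM.

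Summed over the 49 genes, initiation factors took 14029, 11539 and 12775 TPM in the parental, PGCC and daughter libraries of Hey, or 1.52%, 1.26% and 1.40% of each library's total. In SKOV3 the sums were 9800.3, 9121 and 9357 TPM (1.07%, 0.997% and 1.03%). The sum was lowest in PGCCs of both lines, and every Hey library was above every SKOV3 library. In Hey the eIF3 genes made up most of the difference, with sums of 6221, 4804 and 5539 TPM, while in SKOV3 they stood at 2977, 2955 and 2678 TPM. In SKOV3 abundant genes weighed on the sum. EIF4G2, EIF3E and EIF1 measured 1439, 699.6 and 1267 TPM in parental cells and 987, 434 and 1022 TPM in PGCCs. By contrast, 24 of the 49 genes were higher in SKOV3 PGCCs than in parental cells. TPM is a share of a library, and fewer cells of a type and less RNA per cell cannot be told apart in these bulk samples.

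Most initiation factor genes stood lower in Hey PGCCs than in Hey parental cells. Differences are given as differences of log2(TPM + 1), on which 1 is a 2-fold change. Of the 49 genes 38 were below 0, with a median difference of -0.32, where the median of all 14988 tested genes, those that reached a mean of 1 TPM, was 0. All 5 eIF2 and tRNA delivery genes, all 5 eIF2B genes, 12 of 14 eIF3 genes and 10 of 12 eIF4 genes were on the lower side. Their sizes were modest, and 44 of the 49 genes stayed within 2-fold. The mitochondrial share differed between these libraries (2.64% and 12.3%), and with mitochondrial genes left out of the TPM the median of the initiation factors was -0.18 and that of all genes 0.11.

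In SKOV3 PGCCs no such shift was seen. The median difference from parental cells was -0.016 with 25 genes below 0, beside 0.017 for all genes, and 47 of the 49 genes stayed within 2-fold. The 5 eIF2B genes, all lower in Hey PGCCs, had 4 of 5 values above 0 here. Between the lines 17 genes were lower in PGCCs of both, 3 were higher in both, namely EIF1AD, EIF4H and EIF5A2, and 29 took opposite signs. Of all tested genes 22.3% were lower in both, 25.2% higher in both and 48.6% of opposite sign. The SKOV3 differences followed transcript GC content, as described further on. After a smooth trend on GC content and transcript length was removed, 17 genes were again lower in both lines, 4 higher and 28 opposite, but not all were the same genes. EIF1AX, EIF4E and EIF3A then stood above 0 in SKOV3, at 0.19, 0.23 and 0.14, and EIF4H stood at -0.15. So did EIF2B3, EIF2S1, EIF3F and EIF3M stand above 0 in SKOV3, at 0.047, 0.013, 0.10 and 0.017. EIF2S1 was then higher in both lines. Other genes took their places among those lower in both.

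**Figure D1:**
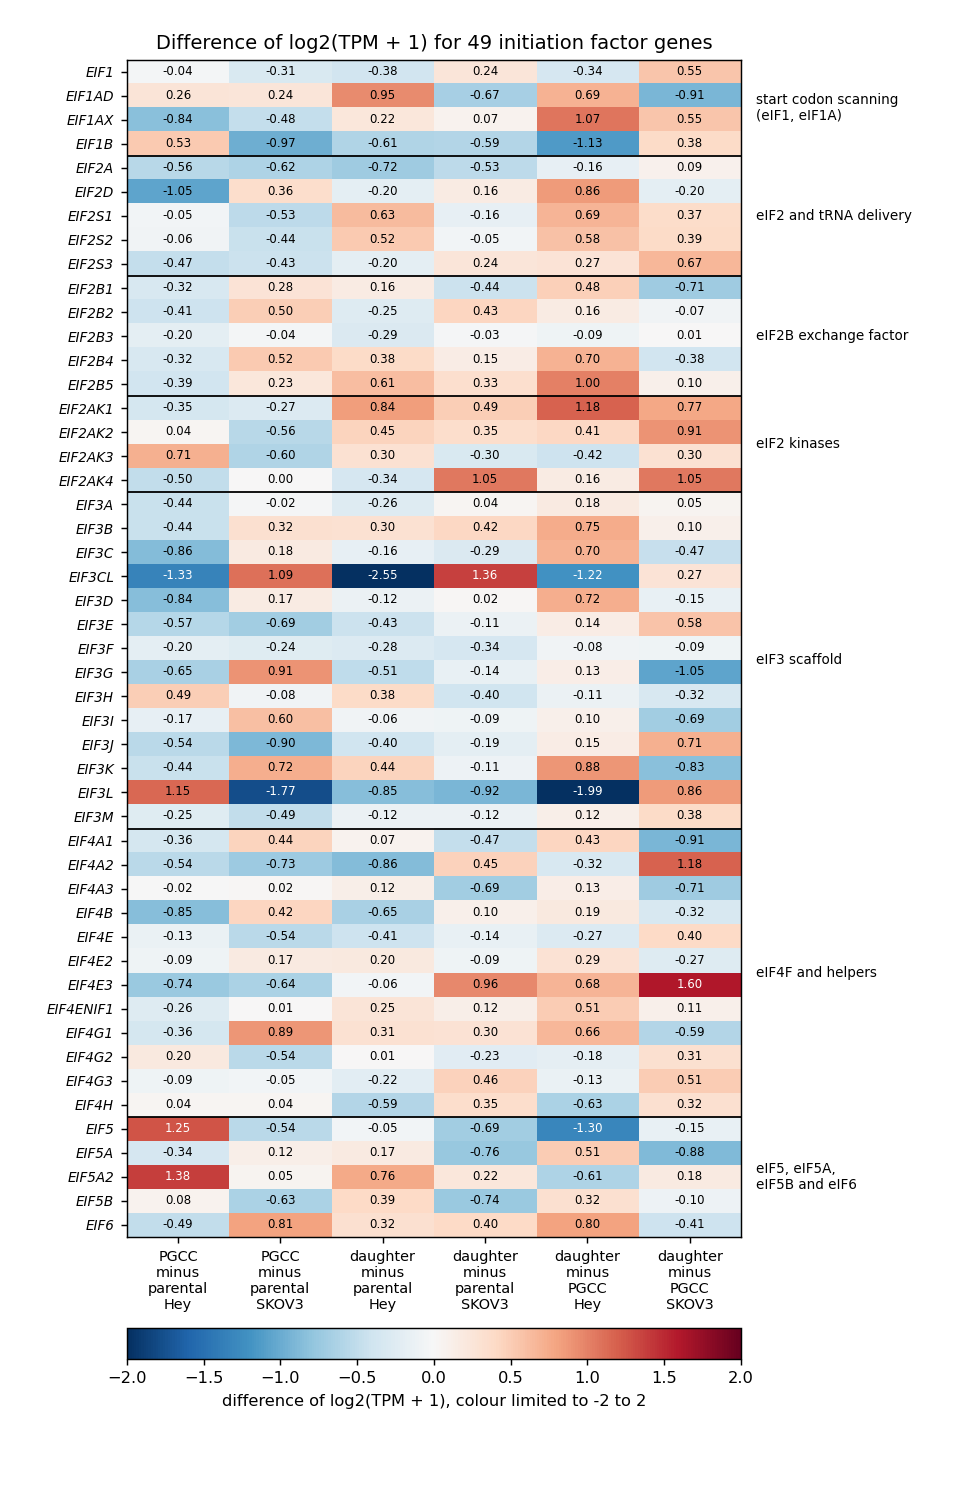
Differences of log2(TPM + 1) for the 49 genes (rows, grouped by role) in the 6 within-line comparisons (columns), with the value printed in each cell and colour limited to -2 to 2. The Hey PGCC minus parental column is mostly blue, with 38 of 49 values below 0, and EIF3L and EIF3CL carry opposite colours in the PGCC minus parental columns of the 2 lines.

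In Hey PGCCs 3 genes passed 2-fold upward, EIF5A2, EIF5 and EIF3L, where 7.67% of all tested genes did, and 2 passed it downward, EIF3CL and EIF2D, where 5.22% did. In SKOV3 PGCCs only EIF3CL passed 2-fold upward (9.94% of all genes) and only EIF3L downward (4.96%). These counts are about as frequent as among all genes, or less so, and single genes carry the description that follows. With quantile normalization the split of higher and lower calls was 3 to 1 in Hey and 0 to 1 in SKOV3.

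EIF3L is a peripheral subunit of eIF3 on chr22:37848868-37889407 (+ strand, GRCh38, GENCODE 44). It measured 111 TPM in the parental, 247 TPM in the PGCC and 61.3 TPM in the daughter library of Hey. In SKOV3 it measured 99.8, 28.4 and 52.3 TPM in the same order. The parental lines had similar levels, and PGCCs then held the highest value of Hey and the lowest of SKOV3. The PGCC minus parental difference was 1.15 in Hey and -1.77 in SKOV3, so the lines went past 2-fold in opposite directions. Daughter cells were below parental cells in both lines, by -0.85 and -0.92. Of all 14988 genes 184 passed 2-fold with opposite signs in this contrast, and EIF3L was 1 of 2 initiation factor genes among them. The 3 EIF3L pseudogenes of the table were listed at 0 in every library.

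EIF5, the GTPase-activating protein of eIF2, lies on chr14:103333544-103345025 (+ strand). It measured 100.3 TPM in the parental, 240.2 TPM in the PGCC and 96.6 TPM in the daughter library of Hey, so the PGCC library stood alone. In SKOV3 it measured 275, 189 and 169.9 TPM, with the parental library highest. The PGCC minus parental difference was 1.25 in Hey and -0.54 in SKOV3, or 1.30 and -0.19 without the GC and length trend. In Hey daughter cells EIF5 was again at the parental level, with a difference of -0.05 from parental cells and of -1.30 from PGCCs.

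EIF5A2 is the less expressed paralog of EIF5A, a factor that carries the modified amino acid hypusine and helps ribosomes through slow peptide bonds and termination. It lies on chr3:170888418-170908644 (- strand). It measured 19.6 TPM in the parental, 52.3 TPM in the PGCC and 33.9 TPM in the daughter library of Hey. In SKOV3 its values of 22.4, 23.2 and 26.3 TPM were close together. The PGCC minus parental difference was 1.38 in Hey and 0.05 in SKOV3, and EIF5A2 had the highest mean difference of the 49 genes over the lines. EIF5A2 had the lowest GC content of the 49 transcripts (33.9%), and without the GC and length trend its differences were 1.49 in Hey and 0.72 in SKOV3, past 1.5-fold in both lines. EIF5A itself measured 566, 448 and 638 TPM in Hey and 422, 459.8 and 249 TPM in SKOV3. The ratio of EIF5A to EIF5A2 was therefore 28.9, 8.56 and 18.8 in the parental, PGCC and daughter libraries of Hey, against 18.9, 19.8 and 9.46 in SKOV3. The coding sequences of the pair share 76.0% of bases.

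EIF2D, which can deliver tRNA without eIF2 and helps to recycle ribosomes, lies on chr1:206571292-206612465 (- strand). It measured 48.1, 22.6 and 41.8 TPM in Hey and 50.0, 64.4 and 56.0 TPM in SKOV3. The Hey PGCC library was the only one below 40 TPM. The PGCC minus parental difference was -1.05 in Hey and 0.36 in SKOV3. The Hey value was -0.94 with quantile normalization and -0.91 with mitochondrial genes left out, both within 2-fold.

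**Figure D2:**
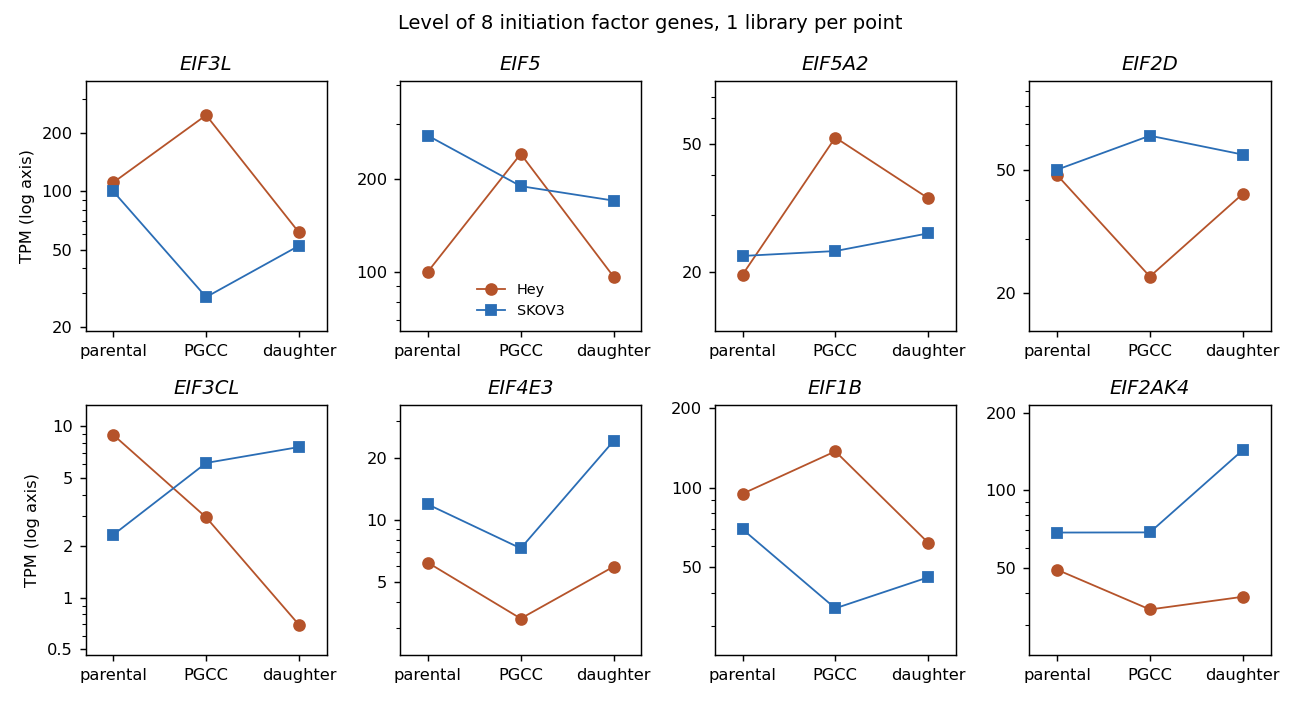
TPM on log axes, 1 point per library, of 8 initiation factor genes in the parental, PGCC and daughter library of Hey (circles) and SKOV3 (squares). EIF3L and EIF5 peak in Hey PGCCs at 247 and 240.2 TPM and return to or below the parental level in Hey daughter cells, while EIF3L has its lowest SKOV3 value, 28.4 TPM, in PGCCs.

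Some genes had the same direction in PGCCs of both lines without passing 2-fold in both. EIF4E3 was the only gene past 1.5-fold in the same direction in both lines, at -0.74 in Hey and -0.64 in SKOV3, with 6.21, 3.33 and 5.94 TPM in Hey and 11.9, 7.29 and 24.1 TPM in SKOV3. Of all genes 3.07% were lower and 3.3% higher by 1.5-fold in both lines. The shared EIF4E3 call was lost when the GC and length trend was removed, with -0.67 in Hey and -0.20 in SKOV3, and EIF5A2 was then the only gene past 1.5-fold the same way in both. EIF3J, a loosely bound eIF3 subunit, measured 148, 101 and 112 TPM in Hey and 118, 62.9 and 104 TPM in SKOV3. EIF1AX, an eIF1A protein of scanning ribosomes, measured 70.3, 38.8 and 82.2 TPM in Hey and 198, 142 and 208 TPM in SKOV3. For both genes the PGCC library was the lowest of each line, although without the GC and length trend the SKOV3 difference of EIF1AX was 0.19 and that of EIF3J -0.27. EIF1AX has the near-identical copy EIF1AXP1 with 99.5% of coding bases shared, which was listed at 0 in Hey parental cells and PGCCs and at 12.5 TPM in SKOV3 PGCCs, and with the copy added the SKOV3 difference was -0.36 in place of -0.48.

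Taking the lines as repeats of each state, limma with line and state as terms called none of the 49 genes for PGCCs against parental cells at a Benjamini-Hochberg adjusted p under 0.05, and none at an unadjusted p under 0.05. Of all 14988 genes 3 were called, or 0.02%. The fit has 2 residual degrees of freedom and measures spread by the disagreement between the lines. The smallest p belonged to EIF3J, with an estimate of -0.72 ± 0.36 (SE, limma adjusted p = 1).

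In SKOV3 PGCCs the direction of a gene against parental cells followed the base composition of its transcript. Across the 49 genes the Spearman correlation between the GC content of the canonical transcript and the PGCC minus parental difference was 0.77 in SKOV3 and -0.23 in Hey. Across the 13468 genes with a GC value it was 0.72 and -0.044, so the SKOV3 pattern is shared by the whole table. For SKOV3 daughter against parental cells the correlation was 0.17 across the 49 genes and 0.15 across all genes with a GC value. For SKOV3 daughter cells against PGCCs it was -0.56 and -0.46. The points are genes of the same pair of libraries, and no p is given. The 16 initiation factor genes of lowest GC content (up to 41.0%) had a median SKOV3 difference of -0.54, and the 16 of highest GC content (from 50.4%) one of 0.34. EIF3G (60.2% GC), EIF4G1 (56.7%) and EIF6 (57.3%) were at 0.91, 0.89 and 0.81, while EIF3J (37.7%) was at -0.90. After a smooth trend on GC content and transcript length was removed, these values became 0.17, 0.27, 0.27 and -0.27. EIF3L, of 48.5% GC, stood off the trend and was at -1.75 in SKOV3 and 1.12 in Hey after its removal. The parts of RNA quality and library preparation in this trend were not tested.

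**Figure D3:**
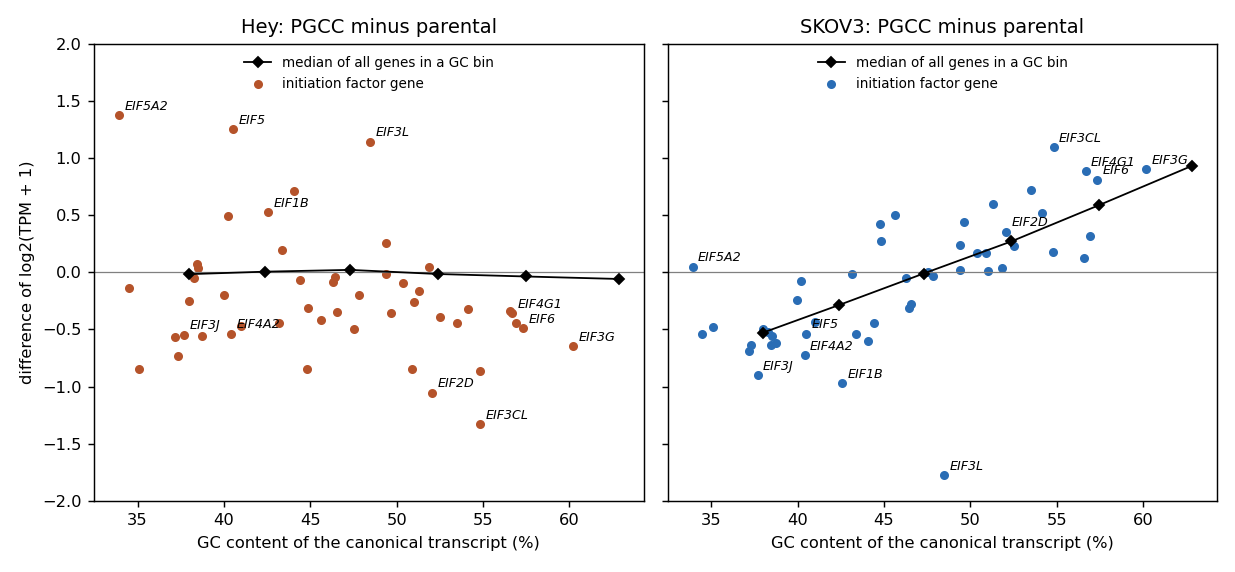
PGCC minus parental difference of log2(TPM + 1) against transcript GC content for the 49 genes (dots) and the median of all genes in 6 GC bins (diamonds), for Hey and SKOV3. In SKOV3 the dots climb along the medians, from -0.53 to 0.93 across bins, and EIF3L lies below them, while the Hey medians stay within 0.1 of 0.

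Daughter cells were close to parental cells for most initiation factors. The median differences were -0.056 in Hey and -0.052 in SKOV3, beside 0.050 and 0.15 for all genes, and 48 and 47 of the 49 genes stayed within 2-fold. In Hey daughter cells no gene passed 2-fold upward (6.31% of all genes did) and EIF3CL passed it downward (3.73%). In SKOV3 daughter cells EIF3CL and EIF2AK4 passed it upward (15.1%) and none downward (6.34%). With median-ratio scaling, which moves the median of all genes by -0.16 in the SKOV3 comparison, the SKOV3 split was 1 higher and 1 lower, EIF2AK4 falling short at 0.84 and EIF3L passing at -1.13.

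EIF2AK4 encodes GCN2, the eIF2 kinase that senses uncharged tRNA, and lies on chr15:39934115-40035591 (+ strand). It measured 68.6 TPM in SKOV3 parental cells, 68.7 TPM in SKOV3 PGCCs and 143 TPM in SKOV3 daughter cells. In Hey it measured 49.3, 34.6 and 38.7 TPM. The SKOV3 daughter library stood alone, and the differences from parental cells were 1.05 in SKOV3 and -0.34 in Hey. After removal of the GC and length trend the SKOV3 value was 0.80.

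EIF1B and EIF3L were lower by at least 1.5-fold in daughter cells of both lines, as were 1.52% of all genes, and no initiation factor was higher by 1.5-fold in both, against 4.88% of all genes. EIF1B, a close paralog of EIF1 that shares 83.8% of its coding bases, measured 94.9, 137 and 62.0 TPM in Hey and 69.7, 35.0 and 45.9 TPM in SKOV3. Its differences from parental cells were -0.61 and -0.59 in daughter cells and 0.53 and -0.97 in PGCCs. Without the GC and length trend the SKOV3 values were -0.44 and -0.61, so of the pair only EIF3L, at -0.97 and -1.02, was still past 1.5-fold in daughter cells of both lines. The antisense gene EIF1B-AS1 was listed at 5.69 to 19.4 TPM, and whether counting used strand is not given in the sources used here. EIF2A, which can bring initiator tRNA without GTP, was lower in daughter cells at -0.72 and -0.53. EIF2AK1, the heme-regulated eIF2 kinase, had the highest mean difference over the lines, 0.84 in Hey and 0.49 in SKOV3, the latter 0.30 without the GC and length trend. EIF5A2 and EIF2B5, the catalytic subunit of eIF2B, followed at 0.76 and 0.22 and at 0.61 and 0.33. EIF1AD, which carries an eIF1A domain, went past 1.5-fold in opposite directions at 0.95 and -0.67, with 20.4, 24.6 and 40.4 TPM in Hey and 47.0, 55.8 and 29.2 TPM in SKOV3. The limma fit called none of the 49 genes for daughter against parental cells, either adjusted by Benjamini-Hochberg or at an unadjusted p under 0.05, and 2 of all genes (0.0133%). The smallest p was that of EIF2AK1, with an estimate of 0.66 ± 0.36 (SE, limma adjusted p = 1).

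Daughter cells differed from PGCCs past 2-fold in 7 initiation factor genes of Hey and 4 of SKOV3. Against parental cells these counts were 1 and 2. The PGCC libraries are the same as in the comparison of PGCCs with parental cells. In each direction the calls were about as frequent as among all genes, or less so. In Hey the median difference from PGCCs was 0.18 with 33 of 49 genes above 0, beside 0.029 and 51.9% for all genes. EIF2AK1, EIF1AX and EIF2B5 passed 2-fold upward (9.95% of all genes), and EIF3L, EIF5, EIF3CL and EIF1B downward (8.13%). In SKOV3 the median was 0.10, beside 0.12 for all genes, with EIF4E3, EIF4A2 and EIF2AK4 passing upward (14.6%) and EIF3G downward (9.25%). The calls depend on scaling, since the split of higher and lower was 3 to 4 in Hey and 0 to 4 with quantile normalization, and in SKOV3 3 to 1 and 2 to 4 with median-ratio scaling. After removal of the GC and length trend none of the 4 SKOV3 genes passed 2-fold, at 1.00 for EIF4E3, 0.78 for EIF4A2, 0.82 for EIF2AK4 and -0.51 for EIF3G.

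EIF3G, an RNA-binding eIF3 subunit, measured 248, 158 and 173 TPM in Hey and 121, 228 and 109.9 TPM in SKOV3. Its parental library was highest in Hey and its PGCC library in SKOV3. EIF2B5 measured 34.3, 25.9 and 52.9 TPM in Hey and 25.4, 29.9 and 32.2 TPM in SKOV3, with the daughter library highest in each line.

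Of the eIF2 kinases all 4 had SKOV3 daughter values above those of PGCCs, with differences of 0.77 for EIF2AK1, 0.91 for EIF2AK2 (PKR, the sensor of double-stranded RNA), 0.30 for EIF2AK3 (PERK, the sensor of endoplasmic reticulum stress) and 1.05 for EIF2AK4. Of all genes 56.3% were above 0 in this contrast, with a median of 0.12. Without the GC and length trend the differences were 0.51, 0.35, -0.04 and 0.82 in the same order, so EIF2AK3 was no longer above 0. In Hey 3 of the 4 were above 0 and EIF2AK3 was at -0.42. The summed TPM of the kinases was 125, 105 and 163 in Hey and 196, 166 and 309 in SKOV3, so the daughter library was the highest of each line. EIF2AK1 measured 47.4, 37.0 and 85.4 TPM in Hey and 80.3, 66.3 and 113 TPM in SKOV3. EIF2AK3 measured 5.76, 10.1 and 7.31 TPM in Hey and 16.6, 10.6 and 13.3 TPM in SKOV3, and its PGCC minus parental differences had opposite signs, 0.71 and -0.60.

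EIF2AK1 and EIF4E3 were higher by at least 1.5-fold in daughter cells than in PGCCs of both lines, where 4.7% of all genes were, and none was lower in both (3.18%). Without the GC and length trend EIF2AK1 was at 0.51 in SKOV3 and lost the shared call, EIF4E3 kept it at 0.63 and 1.00, and EIF5 was lower in both at -1.37 and -0.64. They also had the smallest limma p of the 49 genes for this contrast, with estimates of 0.98 ± 0.36 for EIF2AK1 (SE) and 1.14 ± 0.45 for EIF4E3 (SE), higher in both lines and both under an unadjusted 0.05. Neither passed adjustment, with a limma Benjamini-Hochberg adjusted p of 0.908 for each, and the fit called 0.0% of all genes at an adjusted p under 0.05 and 758 at an unadjusted p under 0.05.

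The balance of the helicase paralogs of eIF4F differed between the libraries of each line, but not in the same way in both lines. EIF4A1 measured 965, 753 and 1014 TPM in Hey and 432, 585 and 311 TPM in SKOV3. EIF4A2 measured 567, 391 and 312 TPM in Hey and 172, 104 and 237 TPM in SKOV3. The TPM ratio of EIF4A1 to EIF4A2 was 1.70, 1.93 and 3.25 in Hey, highest in daughter cells, and 2.50, 5.64 and 1.31 in SKOV3, highest in PGCCs. In SKOV3 the pair moved in opposite directions in both steps, and its members differ in GC content, 49.7% for EIF4A1 and 40.4% for EIF4A2. Without the GC and length trend the SKOV3 PGCC minus parental differences were 0.42 for EIF4A1 and -0.23 for EIF4A2. Those of daughter cells minus PGCCs were -0.96 and 0.78, so the directions stayed opposite. Their coding sequences share 79.6% of bases. The remaining paralog, EIF4A3 of the exon junction complex, was within 2-fold throughout.

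EIF4B, which stimulates the helicase, measured 1093, 608 and 695 TPM in Hey, highest in parental cells, and 325, 437 and 349 TPM in SKOV3, highest in PGCCs. Its PGCC minus parental differences were -0.85 and 0.42. Among the low genes EIF2B2 measured 5.52, 3.90 and 4.48 TPM in Hey and 5.42, 8.07 and 7.65 TPM in SKOV3, and EIF4ENIF1 9.22, 7.55 and 11.2 TPM in Hey and 19.5, 19.7 and 21.3 TPM in SKOV3. For both genes the PGCC library was the lowest of Hey and not the lowest of SKOV3.

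The scaffold EIF4G1 measured 245, 191 and 304 TPM in Hey and 126, 233 and 155 TPM in SKOV3, and EIF4G2 976, 1118 and 984 TPM in Hey and 1439, 987 and 1227 TPM in SKOV3. The ratio of EIF4G1 to EIF4G2 was 0.251, 0.171 and 0.309 in Hey and 0.0873, 0.236 and 0.126 in SKOV3. PGCCs thus had the lowest ratio of Hey and the highest of SKOV3. The ratio to EIF4G3 was 5.12, 4.25 and 7.40 in Hey and 2.38, 4.57 and 2.11 in SKOV3, likewise lowest and highest in PGCCs. EIF4G1 has a GC content of 56.7%, EIF4G2 of 43.4% and EIF4G3 of 46.3%. Their SKOV3 PGCC minus parental differences were 0.89, -0.54 and -0.051 in that order. Without the GC and length trend they were 0.27, -0.29 and -0.053, so the SKOV3 ratios shifted less. EIF1 measured 1146, 1111 and 879 TPM in Hey and 1267, 1022 and 1497 TPM in SKOV3, and its ratio to EIF1B was 12.1, 8.09 and 14.2 in Hey and 18.2, 29.2 and 32.6 in SKOV3. The cap-binding proteins EIF4E and EIF4E2 were nearly level, with ratios between 0.867 and 1.52.

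**Figure D4:**
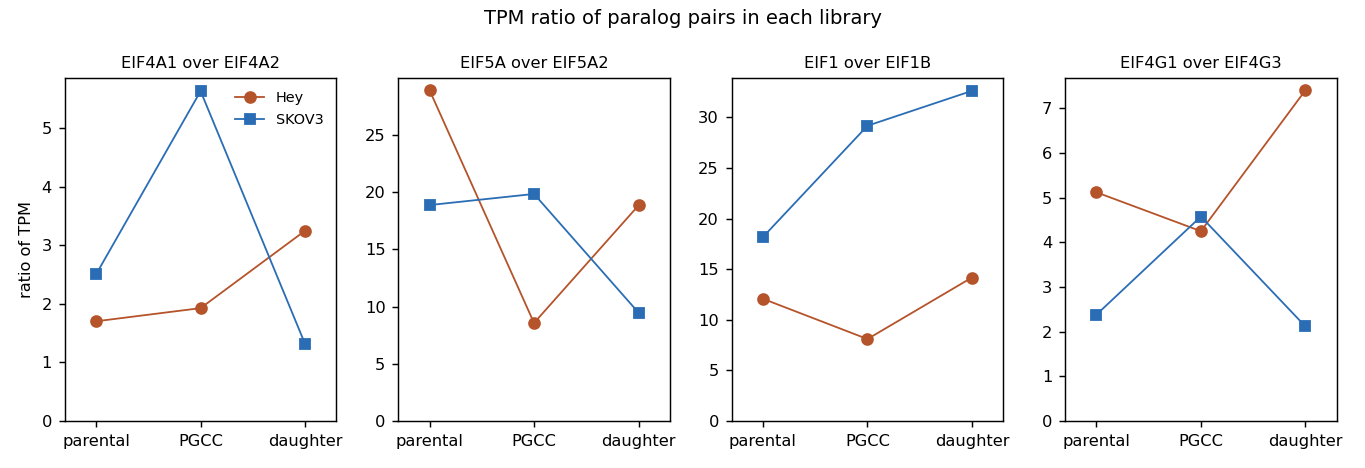
Ratio of TPM within 4 paralog pairs in the parental, PGCC and daughter library of Hey (circles) and SKOV3 (squares), 1 library per point, axes from 0. EIF4A1 over EIF4A2 peaks at 5.64 in SKOV3 PGCCs, and EIF5A over EIF5A2 drops to 8.56 in Hey PGCCs.

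EIF3CL (chr16:28379579-28403841, - strand) had the widest range of the 49 genes and the least certain level. It measured 8.91, 2.94 and 0.695 TPM in Hey and 2.33, 6.11 and 7.57 TPM in SKOV3. Its differences from parental cells were -1.33 and -2.55 in Hey PGCCs and daughter cells and 1.09 and 1.36 in SKOV3. All 2739 coding bases of its paralog EIF3C are found in EIF3CL, and EIF3C measured 862, 474 and 769 TPM in Hey and 426, 483 and 349 TPM in SKOV3, at least 46.1 times EIF3CL in every library. Reads of the pair can hardly be told apart, so the EIF3CL values rest on how salmon divided them. With the copies added the PGCC minus parental differences were -0.87 in Hey and 0.19 in SKOV3, close to those of EIF3C alone. EIF3F, with 98.6% of its coding bases in the copy EIF3FP3, stood at -0.20 in Hey PGCCs and -0.24 in SKOV3 PGCCs alone and at -0.68 and 0.51 with the copy added, so its SKOV3 direction depends on the copy.

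Among the initiation factors the limma fit made calls between the lines and none between states. The line term sets 3 libraries against 3 and a state term 2 against 2, so the counts do not compare sizes. All 3 Hey libraries were above all 3 SKOV3 libraries for 11 genes and below them for 12, where 12.8% and 31.8% of all tested genes did so, and 26 genes overlapped. In the limma fit 7 genes passed a Benjamini-Hochberg adjusted p under 0.05, of which 5 were higher in Hey (6.27% of all genes) and 2 in SKOV3 (14.4%). Calls higher in Hey outnumbered calls higher in SKOV3 among the initiation factors, and the other way round among all genes. The libraries of a line are different states of the cells and not replicate cultures, so the fit measures how constant the line difference was over states.

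EIF3E measured 2409, 1623 and 1792 TPM in Hey and 699.6, 434 and 648 TPM in SKOV3, a difference of 1.72 ± 0.28 (SE, limma adjusted p = 0.0074). EIF2A measured 280.1, 189 and 169.8 TPM in Hey and 87.1, 56.4 and 60.0 TPM in SKOV3, a difference of 1.63 ± 0.28 (limma adjusted p = 0.0087). EIF4A2, EIF3H and EIF2S2, the beta subunit of eIF2, were higher in Hey by 1.34, 1.32 and 1.09 with limma adjusted p of 0.043, 0.023 and 0.038. EIF3H measured 632, 891 and 823 TPM in Hey and 346, 328 and 262 TPM in SKOV3, and EIF2S2 274, 262 and 393 TPM in Hey and 159.7, 117 and 154 TPM in SKOV3, with no overlap for either. Higher in SKOV3 were EIF4H, a helper of the eIF4A helicase, with 116, 119.8 and 77.1 TPM in Hey and 312, 320.2 and 399 TPM in SKOV3 (difference -1.73 ± 0.32, limma adjusted p = 0.011), and EIF1AX (-1.55 ± 0.29, limma adjusted p = 0.012). EIF4E3 at -1.21 and EIF2AK4 at -1.10 did not overlap between the lines but missed the threshold (limma adjusted p = 0.056 and 0.067). The same held for EIF4ENIF1 at -1.05 (limma adjusted p = 0.055). On the Hey side EIF3D, EIF4B and EIF4A1, each higher by 1.07, also had no overlap and missed it (limma adjusted p = 0.054, 0.062 and 0.064). Without either parental or either PGCC library the fit called 0 of the 49 genes, and without the Hey or the SKOV3 daughter library 4 and 5.

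**Figure D5:**
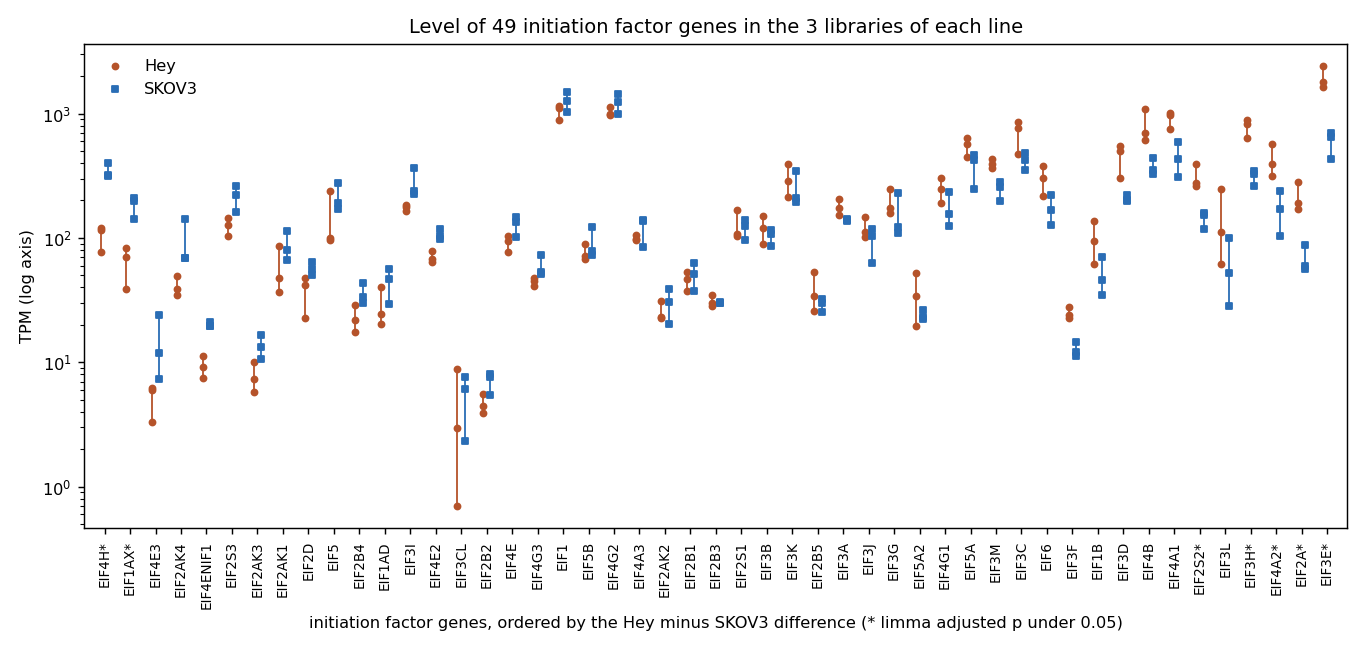
TPM (log axis) of the 49 genes in the 3 libraries of Hey (circles) and of SKOV3 (squares), joined from lowest to highest and ordered by the Hey minus SKOV3 difference, with asterisks at a limma adjusted p under 0.05. The lines stand apart at both ends, from EIF4H (SKOV3 higher) to EIF3E (Hey higher), and overlap for 26 genes.

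The regulators around the initiation factors were read from a list of 46 genes, of which 44 passed the filter on mean TPM. In Hey PGCCs 1 passed 2-fold upward against parental cells and 2 downward (7.67% and 5.22% of all genes), and in SKOV3 PGCCs 6 upward and 0 downward (9.94% and 4.96%). The stress factor DDIT3 (CHOP) measured 16.7, 87.9 and 20.0 TPM in Hey and 68.7, 63.0 and 61.1 TPM in SKOV3, so its Hey PGCC value was the only one far from its line. ATF4 measured 711, 513 and 548 TPM in Hey and 339.8, 475 and 472 TPM in SKOV3, within 2-fold throughout. EIF4EBP1, the inhibitor that holds eIF4E away from eIF4G, measured 171, 99.3 and 197 TPM in Hey and 56.3, 98.1 and 56.0 TPM in SKOV3. It was lowest of the line in Hey PGCCs and highest in SKOV3 PGCCs. Its SKOV3 PGCC minus parental difference was 0.79, and its transcript has 62.9% GC. For all genes above 60% GC the median of that difference was 0.93.

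The elongation factor subunit EEF1D was lower in Hey PGCCs (518, 218 and 478 TPM) and higher in SKOV3 PGCCs (166, 422 and 159.6 TPM). The translocase EEF2 measured 436, 283 and 360.1 TPM in Hey and 351, 748 and 423 TPM in SKOV3. The enzymes that make hypusine on EIF5A moved separately, with DHPS at 37.0, 15.1 and 35.6 TPM in Hey and 47.3, 50.2 and 57.4 TPM in SKOV3, and DOHH at 1.81, 3.04 and 2.23 TPM in Hey and 2.22, 7.45 and 1.59 TPM in SKOV3. The other SKOV3 PGCC genes past 2-fold were RPS6KB2, MKNK2 and CTIF, and the transcripts of EEF1D, EEF2, DOHH, RPS6KB2, MKNK2 and CTIF all have a GC content above 59%, on the side of the SKOV3 trend described above. Some of the list moved the same way past 1.5-fold in PGCCs of both lines, against parental cells. ABCE1 (-0.75 in Hey and -0.90 in SKOV3) and BZW2 (-0.84 and -0.62) were lower, and MIF4GD (0.60 and 0.75) was higher. Of all genes 3.07% were lower and 3.3% higher in this way. ABCE1 (35.5% GC) and MIF4GD (56.0% GC) lie on the matching sides of the SKOV3 trend. The limma fit called 0 of the 44 genes for any contrast of states at a Benjamini-Hochberg adjusted p under 0.05, and 1, 0 and 2 at an unadjusted p under 0.05 for PGCC against parental, daughter against parental and daughter against PGCC.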

How the data were processed

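RNA-seq was measured in 6 libraries, 1 per condition. Per the processing notes of the submitters, the authors ran fastp on the reads and quantified them on the human transcriptome (hg38) with Salmon 0.14.1, and deposited TPM values per gene symbol. The annotation release and the step that summed transcripts to genes are not given in the sources used here. The TPM table carries no read counts, so depth per gene is unknown and no counting error is given.

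Genes were matched by symbol, and the initiation factor genes and all gene lists were chosen with earlier results of these data known. Differences are of log2(TPM + 1) within a line, called at 2-fold, with the 14988 genes of a mean TPM of at least 1 as background. limma 3.58.1 in R 4.3.3 was fitted to the same genes with line and state as terms, eBayes with an intensity trend, two-sided, with Benjamini-Hochberg adjustment. A run on simulated data checked the code only, since its noise was smaller and its shifts larger than those of the initiation factor genes. Named genes are those past 2-fold in any comparison within a line, past 1.5-fold the same way in both lines, with the 3 highest or lowest mean differences, the 5 highest or lowest mean levels, the paralog pairs and the smallest limma p values. EIF2AK2, EIF2B3, EIF2S1, EIF3A, EIF3D, EIF3F, EIF3M, EIF4A3, EIF6 and the regulators named with values were chosen after their values were seen. So were the sum with near-identical copies and the counts over both lines without the GC and length trend. GENCODE 44 gave positions, GC content and lengths. RefSeq (GRCh38.p14) gave promoters. Python 3.11.15 with pandas 2.3.3, numpy 2.4.6, scipy 1.17.1 and statsmodels 0.14.6 was used otherwise. Alternatives were a pseudocount of 0.1, folds of 1.5 and 3, median-ratio scaling, quantile normalization, mitochondrial genes left out, a GC and length trend removed, other filters, and each library left out.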

Additional observations from a re-analysis of the deposited data

Results flagged for a closer look

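EIF3L and EIF3CL moved past 2-fold or nearly so in opposite directions in the lines, with 1 library per condition, so the difference between lines was not tested. For EIF3L the PGCC minus parental difference of log2(TPM + 1) was 1.15 in Hey and -1.77 in SKOV3, and the daughter minus PGCC difference was -1.99 in Hey and 0.86 in SKOV3. For EIF3CL the PGCC minus parental difference was -1.33 in Hey and 1.09 in SKOV3, and the daughter minus parental difference was -2.55 in Hey and 1.36 in SKOV3. EIF3CL shares its reads with EIF3C, whose level was at least 46.1 times higher in every library.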

How the results depend on the processing

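Counts of genes past 2-fold, in the order PGCC, daughter against parental cells and daughter cells against PGCCs, were 5, 1 and 7 in Hey and 2, 2 and 4 in SKOV3. At 1.5-fold they were 12, 12 and 20 in Hey and 15, 10 and 17 in SKOV3. At 3-fold they were 0 for Hey PGCCs, 1 for SKOV3 PGCCs, 0 for SKOV3 daughter against parental cells, and 1 in each line for daughter cells against PGCCs. Quantile normalization gave 1 for SKOV3 PGCCs and 4 for Hey daughter cells against PGCCs, removal of the GC and length trend gave 1 for SKOV3 PGCCs and 1 for SKOV3 daughter cells against PGCCs, and leaving out mitochondrial genes gave 2 for Hey daughter against parental cells.

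The median difference in Hey PGCCs was -0.21 with quantile normalization and -0.18 without mitochondrial genes. With median-ratio scaling the medians of daughter against parental cells were -0.18 in Hey and -0.27 in SKOV3. For daughter cells against PGCCs the median was 0.080 in Hey with quantile normalization, and in SKOV3 -0.045 with median-ratio scaling, 0.0025 with quantile normalization, 0.22 without mitochondrial genes and -0.15 with the GC and length trend removed, so its sign is not stable. The all-gene median of daughter against parental cells in SKOV3 was moved by -0.16 by median-ratio scaling and by -0.18 by quantile normalization.

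The 7 genes called between the lines became 0 when all genes with a TPM above 0 were fitted, 12 with median-ratio scaling (10 higher in Hey and 2 in SKOV3) and 13 without state in the fit. Leaving out 1 library gave 0 to 5, with 1 residual degree of freedom. The contrasts of states called 0 of the 49 genes under every alternative. With line as a term these contrasts compare libraries within a line, and without line they also called 0. No depth limit can be given because the table holds no counts. The causes of these changes were not tested.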
